A study of Mus musculus with 8 samples.

Results

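The transcripts described here are 6 noncoding RNAs, *Malat1*, *Neat1*, *Gm42418*, *AY036118*, *Gm26917* and *Gm26532*, out of 31053 features in the deposited count tables. They were chosen by name, because most of them led groups of cell barcodes with few RNA molecules in earlier work on these same tumours. Their levels in low-RNA against full barcodes, in clusters and in cell types are therefore given as a description, with no test. The host genotype took no part in the choice, and only that comparison was tested. All 6 were counted in all 8 tumours.

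*Malat1* and *Neat1* are long noncoding RNAs that stay in the nucleus. *Malat1* gathers at nuclear speckles, the bodies that store splicing factors, and *Neat1* is the RNA around which paraspeckles are built. *Gm42418*, *AY036118* and *Gm26917* are gene models placed in or beside a ribosomal RNA gene, and ribosomal RNA is the most abundant RNA of a cell. Mitochondrial and cytoplasmic mRNAs lie outside the nucleus, so the nuclear transcripts and these mRNAs mark different compartments of the same cell.

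The loci are given on GRCm38 with the GENCODE annotation, which lists all 6 as long intergenic noncoding RNAs. *Malat1* (ENSMUSG00000092341) covers chr19:5795690-5802672 on the minus strand, and *Neat1* (ENSMUSG00000092274) covers chr19:5824708-5845478 on the same strand, with 22035 bases between them. *Gm26532* (ENSMUSG00000097296) covers chr8:84208920-84209609 on the plus strand. *Gm42418* (ENSMUSG00000098178) covers chr17:39846958-39848788 on the plus strand and shares 1245 of its 1831 bases with *Rn18s-rs5*, a ribosomal RNA gene model. *AY036118* (ENSMUSG00000105361) covers chr17:39847113-39848035 on the minus strand, and its 923 bases all lie inside *Gm42418*. *Gm26917* (ENSMUSG00000097971) covers chr17:39843013-39846341 on the plus strand and ends 12 bases before *Rn18s-rs5*. The libraries were primed on runs of A at the 3′ end of RNA, so the stretches below show what such a run or a polyadenylation signal looks like in each transcript. The first has the 12-base run of A inside *Malat1* in capitals, and the next pair have the signal AATAAA near the 3′ end of *Gm26532* and of the short *Neat1* form in capitals.

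Malat1 bases 6634 to 6745, chr19:5795928-5796039, minus strand: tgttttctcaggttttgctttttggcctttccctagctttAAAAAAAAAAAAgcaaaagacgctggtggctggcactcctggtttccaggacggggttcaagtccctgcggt
Gm26532 bases 640 to 690, chr8:84209559-84209609, plus strand: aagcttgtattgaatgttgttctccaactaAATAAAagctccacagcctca
Neat1 short form bases 2945 to 3004, chr19:5842307-5842366, minus strand: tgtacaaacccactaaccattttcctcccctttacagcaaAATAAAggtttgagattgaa

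Of 141767 annotated transcripts, 4.07% hold a run of 12 or more A and 25.8% hold AATAAA in their last 40 bases, both searched on the transcript strand. *Gm42418*, *AY036118* and *Gm26917* hold no AATAAA at all, and their longest runs of A have 6, 4 and 4 bases. The next sequences show how the ribosomal models are placed. The first pair are the same 60 bases read from both strands, which pair with each other along their whole length. Capitals mark the last 30 bases of *AY036118* and the bases of *Gm42418* that pair with them. The last is the 3′ end of *Gm26917*, with its final 12 bases in capitals.

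Gm42418 bases 156 to 215, chr17:39847113-39847172, plus strand: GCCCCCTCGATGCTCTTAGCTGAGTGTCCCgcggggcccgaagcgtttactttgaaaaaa
AY036118 bases 864 to 923, chr17:39847113-39847172, minus strand: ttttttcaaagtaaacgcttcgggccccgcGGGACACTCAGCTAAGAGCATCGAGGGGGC
Gm26917 bases 3270 to 3329, chr17:39846282-39846341, plus strand: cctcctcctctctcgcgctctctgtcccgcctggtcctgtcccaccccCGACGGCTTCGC

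*AY036118* is thus the opposite strand of *Gm42418*. The sources used here do not say how the counting used the strand or reads that match several ribosomal copies, so the split of UMIs among these 3 models is uncertain. GC content was 60.2% in *Gm42418*, 54.4% in *AY036118* and 69.1% in *Gm26917*, against 42.5% in *Malat1*, 47.3% in *Neat1* and 51.7% in *Gm26532*. *Gm26532* begins 23 bases after miR-24-3p in a cluster of 3 microRNAs, which RefSeq places on GRCm38.p6 as miR-23a-3p at chr8:84208563-84208583, miR-27a-3p at chr8:84208727-84208747 and miR-24-3p at chr8:84208875-84208896. Their mature sequences are shown because they are the nearest transcripts of known function, with the seed (bases 2 to 8) in capitals, and their own levels were not analysed here.

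miR-23a-3p: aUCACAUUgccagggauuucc
miR-27a-3p: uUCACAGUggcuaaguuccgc
miR-24-3p: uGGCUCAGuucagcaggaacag

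The study asked how loss of host *Atf4*, a transcription factor of the Integrated Stress Response, affects tumours that keep the gene. Single-cell RNA-seq was run on 8 large (300 mm3) B16F10 tumours, a mouse melanoma line, with 1 library per tumour. The 4 Atf4wt/wt and the 4 Atf4D/D hosts were C57BL/6 mice of 12 weeks per the labels, all carried Rosa26::CreERT2 and all received tamoxifen, which in Atf4D/D hosts excised floxed exons of *Atf4* in every tissue the Cre reaches. The injected melanoma cells were not floxed and kept *Atf4*. Hosts of Atf4wt/wt replicates 1 and 3 and of Atf4D/D replicates 2, 3 and 4 were male.

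The tables held 41925 barcodes, with 37283598 to 74942137 UMIs (unique molecular identifiers, each standing for 1 captured RNA molecule) per tumour and a median of 6330.5 to 10652.5 UMIs per barcode. The study's filters kept 28411 barcodes. They fell into 23314 melanoma-like cells, 731 CAF-like (cancer-associated fibroblast) cells, 433 TAM-like (tumour-associated macrophage) cells and 2874 low-RNA barcodes. Smaller classes included 287 other immune and 137 T/NK-like cells. A barcode was called low-RNA when it was in no named host class and had under 1/3 of the median UMIs of its tumour. A further 559 barcodes with 1/3 or more of the median fell in no named class. Of these, 317 were from Atf4wt/wt replicate 4 and 9 to 71 from each other tumour. Of the deposited barcode sequences, 199 occurred in 2 or more libraries, and 96 of the kept ones did. Melanoma markers made up 1.74 ± 0.11% (SD, n = 8) of UMIs in melanoma-like cells and 2.24 ± 0.71% in low-RNA barcodes, and *Atf4* in CAF-like cells was 297 ± 19.3 CPM (UMIs of a transcript per 1000000 UMIs of its class in a tumour) in Atf4wt/wt and 130 ± 36.9 in Atf4D/D tumours (n = 4 each, edgeR adjusted p = 0.0138). *Dct*, a melanin gene that fibroblasts should lack, was found in 20.4 ± 5.52% of CAF-like barcodes thinned to 500 UMIs against 89.9 ± 2.08% of melanoma-like ones. Without thinning the shares were 64.8% and 99.9%, at median depths of 4585 and 10390.5 UMIs. Whether the *Dct* of CAF-like barcodes came from RNA of other cells in the droplet was not tested.

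*Malat1* took a higher share of UMIs in the low-RNA barcodes than in the melanoma-like cells of every tumour. In Atf4wt/wt replicates 1 to 4, melanoma-like cells held 6238, 6920, 8680 and 7319 CPM of *Malat1*, and those of Atf4D/D replicates 1 to 4 held 6212, 7742, 5923 and 6161. Low-RNA barcodes held 18059, 18800, 48619 and 40808 CPM in the Atf4wt/wt tumours and 19249, 51126, 22640 and 13418 in the Atf4D/D tumours. No tumour's low-RNA value reached down to the highest melanoma-like value. The per-tumour ratio of low-RNA to melanoma-like levels averaged 4.06 ± 1.64 (SD, n = 8), and it lay above 5 in Atf4wt/wt replicates 3 and 4 and Atf4D/D replicate 2 (5.60, 5.58 and 6.60). Ranked by the mean over tumours of the log2 ratio, taken of CPM + 1, *Malat1* was 4th among 7816 genes with at least 10 CPM in melanoma-like cells.

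*Neat1*, the other nuclear transcript and the neighbour of *Malat1*, did not share this difference. Its melanoma-like levels were 362, 294, 377 and 468 CPM in Atf4wt/wt replicates 1 to 4 and 355, 322, 356 and 358 in Atf4D/D replicates 1 to 4. Its low-RNA levels were 271, 261, 380 and 712 CPM, and 334, 436, 381 and 319, in the same order. The low-RNA value was the higher of the pair in 4 of 8 tumours, and both kinds of barcode covered overlapping ranges. The ratio averaged 1.05 ± 0.26 (n = 8), and by the mean log2 ratio *Neat1* was 3343rd of 7816. There were 5.31 ± 0.90 UMIs of *Neat1* per 100 of *Malat1* in melanoma-like cells, 1.51 ± 0.52 in low-RNA barcodes and 0.85 ± 0.33 in those low-RNA barcodes with under 1% mitochondrial UMIs (n = 8 each).

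*Gm26532*, for which no function is given here, had few UMIs and a ratio like that of *Malat1*. Melanoma-like cells held 12.2, 17.3, 21.3 and 21.8 CPM in Atf4wt/wt replicates 1 to 4 and 17.5, 19.9, 16.8 and 11.5 in Atf4D/D replicates 1 to 4. Low-RNA barcodes held 40.2, 56.2, 127 and 165 in the first group and 68.1, 132, 89.4 and 33.8 in the second, from 387 UMIs in all. Every low-RNA value was above every melanoma-like value. The ratio averaged 4.85 ± 1.75 (n = 8), ranking 2nd of 7816, and the tumours with the largest *Malat1* ratios also had the largest *Gm26532* levels in low-RNA barcodes.

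The 3 ribosomal models were also higher in low-RNA barcodes of every tumour. For *Gm42418*, melanoma-like cells held 1178, 1621, 1842 and 688 CPM in Atf4wt/wt replicates 1 to 4 and 676, 632, 622 and 604 in Atf4D/D replicates 1 to 4. Low-RNA barcodes held 5435, 8259, 7918 and 1818 CPM of it in the first group, and 2445, 2355, 2302 and 2654 in the second. Atf4wt/wt replicates 1 to 3 were the highest of the 8 in both kinds of barcode, while replicate 4 sat with the Atf4D/D tumours. The ratio of *Gm42418* was the least variable of the 6 relative to its mean, 4.01 ± 0.75 (n = 8), and by the mean log2 ratio it was 3rd.

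*AY036118*, the antisense model, averaged a ratio of 5.05 ± 2.30 (n = 8) and ranked 1st of 7816. Its melanoma-like level was 258 CPM in Atf4wt/wt replicate 3 and between 18.8 and 37.1 in the other 7 tumours. *Gm26917*, upstream of the ribosomal model, averaged a ratio of 3.53 ± 2.78 and ranked 7th, with a range of 1.28 to 9.06 among tumours. Per 100 UMIs of *Gm42418* there were 5.03 ± 3.84 of *AY036118* and 7.98 ± 3.49 of *Gm26917* in melanoma-like cells, and 5.61 of *AY036118* in low-RNA barcodes.

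**Figure D1:**
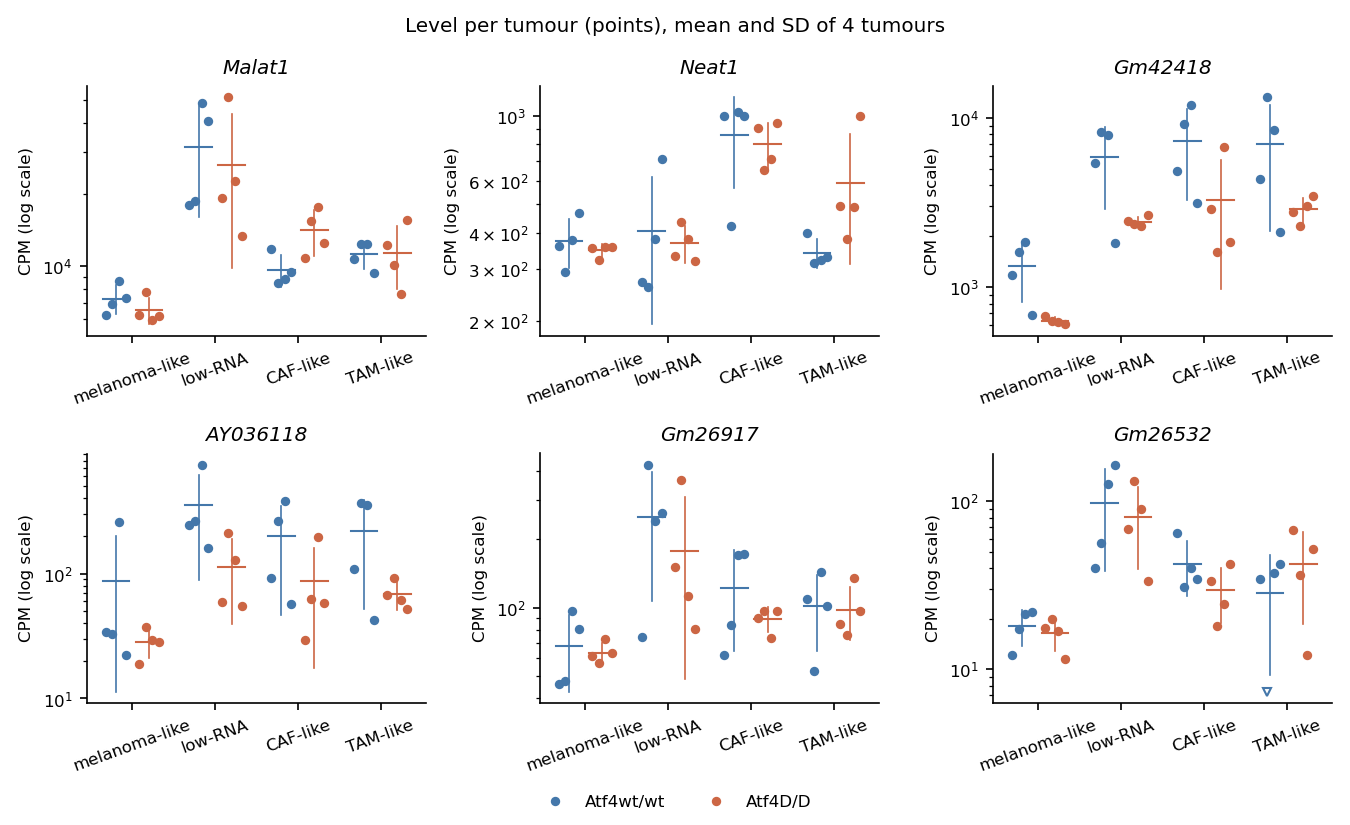
Level of each transcript in CPM (log scale) in melanoma-like cells, low-RNA barcodes, CAF-like cells and TAM-like cells, with a point per tumour, coloured by host genotype, and lines for the mean and SD of 4 tumours (lower ends are cut where they would leave the log axis); an open triangle marks a tumour with no UMI. *Malat1* sits between 5923 and 8680 in melanoma-like cells and between 13418 and 51126 in low-RNA barcodes, while the *Neat1* points of both kinds overlap.

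**Figure D2:**
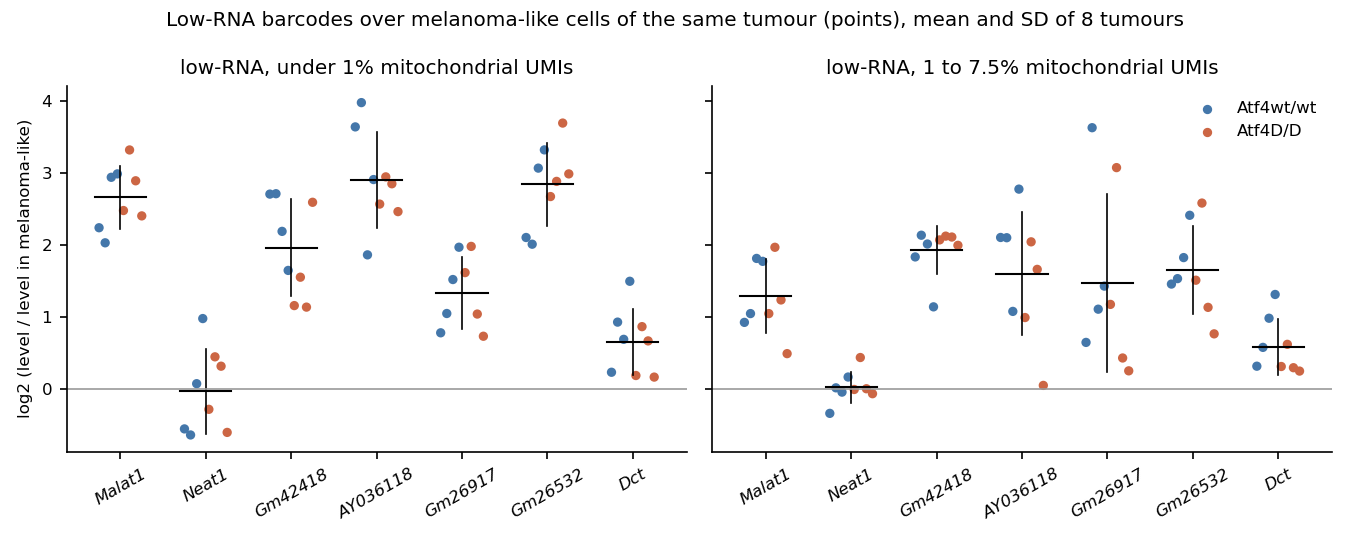
Log2 of the low-RNA level over the melanoma-like level of the same tumour, for each transcript and for *Dct*, with a point per tumour and lines for the mean and SD of 8 tumours; the left panel holds low-RNA barcodes with under 1% mitochondrial UMIs and the right panel those with 1 to 7.5%. *Neat1* averages -0.04 ± 0.59 on the left and 0.02 ± 0.22 on the right (SD, n = 8), and the other 5 transcripts lie above 0 in all 8 tumours of both panels.

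Of those 7816 genes, 26 had a mean log2 ratio above 1 in low-RNA barcodes and 5 had one under -1, and the median of all genes was -0.02. The median of the 6 transcripts was 1.95, with 5 of 6 above 1, which is the contrast they were chosen on. *Dct*, the most raised of the 10 melanoma markers, had a ratio of 1.58 ± 0.49 and was higher in 8 of 8 tumours. Of the other melanoma markers, *Pmel* was higher in 2 of 8 tumours (mean log2 ratio -0.10) and *Ptgds* in 3. Low-RNA barcodes held 1512 ± 167 UMIs each against 11044 ± 879 in melanoma-like cells, and 2.99% of their UMIs were mitochondrial against 5.25%. The summed TAM markers, all 12 of which had UMIs, made up 0.0815 to 0.225% of low-RNA UMIs and 0.0857 to 0.110% of melanoma-like ones. Most of that sum was *Apoe*, with 1255 CPM in low-RNA barcodes against 992 in melanoma-like cells and higher in 5 of 8 tumours. Of the host markers named here after their values were seen, *Cd74*, an antigen presentation gene, had 24.98 ± 23.2 CPM against 5.46 ± 5.21 and was higher in 8 of 8 tumours, the collagen gene *Col1a1* had 12.8 ± 13.8 against 4.26 ± 3.92 and was higher in 7, and the macrophage lysozyme *Lyz2* had 13.98 ± 18.3 against 3.54 ± 3.16 and was higher in 5. Other host markers went the other way, and those given next were also picked after their values were seen. *Fscn1*, a dendritic cell marker, had 8.61 CPM against 11.01 and was higher in 1 of 8 tumours. The CAF markers *Dcn* (0.756 against 0.796) and *Lum* (0.46 against 0.49) were each higher in 2 of 8 tumours. The part of other cells' RNA in the ratios of low-RNA to melanoma-like levels was not tested.

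The mRNAs for proteins of the bodies that hold *Malat1* and *Neat1* did not share the ratio of *Malat1*. The proteins themselves were not measured. None of the 18 measured mRNAs of speckle proteins and none of the 15 of paraspeckle proteins had a mean log2 ratio past 1 in either direction. Their medians were 0.04 and -0.12. *Ddx5*, an RNA helicase, had 728 CPM in low-RNA barcodes against 811 in melanoma-like cells, and *Srsf3*, a splicing factor, had 360 against 470. The paraspeckle RNA-binding proteins *Hnrnpa1* and *Hnrnpk* had 484 against 517 and 414 against 509. For *Ddx5*, *Srsf3* and *Hnrnpk* the low-RNA value was the lower in 8 of 8 tumours.

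Of 17 listed nuclear and other long noncoding RNAs, 10 were in the tables and 5 were abundant enough to measure, with a median of 0.22 and none past 1. *Kcnq1ot1*, which acts in imprinting, had 233 CPM in low-RNA barcodes against 179, and *Snhg12*, a snoRNA host gene, had 103 against 88.7. Among 20 measured genes of ribosomal RNA synthesis and the nucleolus the median was -0.20 with none past 1, and the nucleolar proteins *Npm1* and *Ncl* had 2037 against 2474 and 1085 against 1233. The 16 abundant cytoplasmic mRNAs had a median of -0.09 with none past 1.

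Genes outside the ribosomal locus whose counts are known to take up ribosomal-like reads were mostly too low to measure, 3 of 11. *Lars2*, which codes for a mitochondrial tRNA synthetase, had 80.6 CPM in low-RNA barcodes against 32.2 in melanoma-like cells, a mean log2 ratio of 1.16 ± 0.51 that was above 0 in 8 of 8 tumours. *Cdk8*, a kinase of the Mediator complex, had 46.1 against 29.6 (log2 0.59, 8 of 8 tumours), and *Cmss1* had 42.4 against 46.8. The 13 mitochondrial mRNAs had a median of -0.73, and *mt-Atp6*, an ATP synthase subunit, had 6874 against 13119.

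Low-RNA barcodes were of unlike kinds. Of the 2874, 1181 had under 1% mitochondrial UMIs and 1693 had 1 to 7.5%. In the first kind the 13 mitochondrial mRNAs had a median log2 ratio of -4.42, all 13 under -1, against 522 of all 7816 genes. Their fall follows from the limit that defines this kind. *Malat1* held 46426 ± 18773 CPM in the first kind (6.59 ± 2.00 times melanoma-like cells), with 29469, 28265, 66725 and 58153 in the Atf4wt/wt tumours and 34648, 77495, 44025 and 32632 in the Atf4D/D tumours. In the second kind *Malat1* held 18405 ± 8765, 2.58 times melanoma-like cells. Every tumour of the first kind was above the highest melanoma-like value. *Gm26532* followed the same order (136 ± 65.0 and 62.6 ± 37.7 CPM), as did *AY036118* (ratios of 8.23 and 3.48).

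*Neat1* and *Gm42418* differed less between the kinds than they did among tumours. *Neat1* held 394 ± 233 and 369 ± 77.2 CPM in barcodes with under 1% and with 1 to 7.5% mitochondrial UMIs, and *Gm42418* held 4657 ± 3683 and 3869 ± 2230 (n = 8 each). The ratio of *Gm26917* had medians of 2.46 and 2.20 in these kinds, and its mean of 4.00 ± 4.13 in the second was carried by Atf4wt/wt replicate 2 (12.4) and Atf4D/D replicate 2 (8.44), against a mean of 2.66 ± 0.93 in the first.

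Along the mitochondrial share, full barcodes gave a U-shaped *Malat1* level. It was 17989 ± 6898 CPM in barcodes with under 0.25% mitochondrial UMIs (7 tumours), 12324 ± 989 at 1 to 2%, 6127 ± 680 at 4 to 7.5%, 14953 ± 3729 at 15 to 30% and 22594 ± 5406 above 30% (8 tumours each). The 4 to 7.5% range held the most barcodes, 18983. *Neat1* stayed between 233 and 396 CPM up to a share of 30% and was 601 ± 217 above it, and *Gm42418* was lowest at 4 to 7.5% with 959 ± 484. Barcodes above 7.5% are the ones the study removed. They were not clustered, so host cells were taken out below 7.5% but not above it, here or in the genotype test. Low-RNA above 7.5% thus rests on UMIs alone. Among barcodes above 7.5%, full ones held 8274 ± 1161 CPM of *Malat1* and low-RNA ones held 19791 ± 4551, a ratio of 2.37 ± 0.34.

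**Figure D3:**
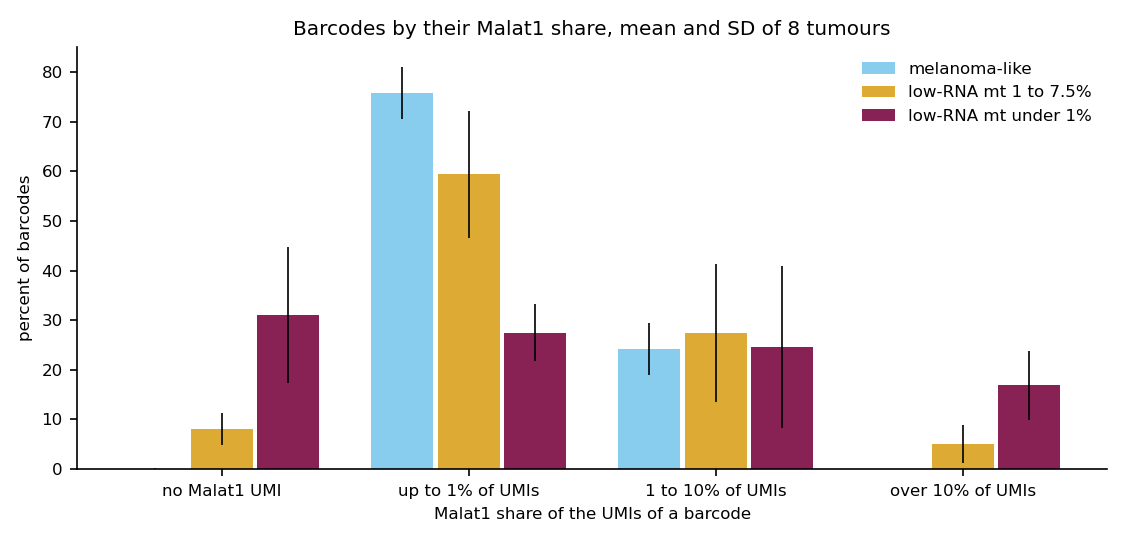
Percent of barcodes in each of 4 ranges of the *Malat1* share of UMIs, for melanoma-like cells and for low-RNA barcodes with 1 to 7.5% and with under 1% mitochondrial UMIs (mt); bars are means and lines the SD of 8 tumours. A share above 10% was found in 16.9 ± 6.88% of low-RNA barcodes with under 1% mitochondrial UMIs and in 0.024% of melanoma-like cells.

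Single barcodes showed that the high mean came from some low-RNA barcodes and not from all. Among those with under 1% mitochondrial UMIs, 31.0 ± 13.7% had no *Malat1* UMI, 27.5 ± 5.80% had up to 1% of their UMIs in *Malat1*, 24.6 ± 16.4% had 1 to 10% and 16.9 ± 6.88% had more than 10% (n = 8). Those above 10% numbered 218. In melanoma-like cells 0.090% of barcodes had no *Malat1* UMI, at a median of 10390.5 UMIs. The highest single barcode held 49.3% of its UMIs in *Malat1*, and the highest melanoma-like one held 14.4%.

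The other transcripts followed this split in different ways. From the barcodes with no *Malat1* UMI to those above 10%, *Neat1* was at 6.95, 65.6, 644 and 910 CPM and *Gm26532* was at 2.66, 21.3, 220 and 356. *Gm42418* was at 5179, 6099, 3723 and 3849, with SDs of 2139 to 5283. *Dct* was at 2738, 4723, 19190 and 10359, so the barcodes rich in *Malat1* were not the ones poor in *Dct*. The other melanoma markers were not taken along this split. *Neat1* was thus higher in barcodes with a larger *Malat1* share, although its mean level in low-RNA barcodes was near that of melanoma-like cells. The 4 sets of barcodes had medians of 822, 895.5, 1560 and 1376.5 UMIs, and the part of depth in these values was not tested.

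Shares of barcodes with a UMI were also taken at equal depth. With every barcode thinned to 500 UMIs, the share with a *Malat1* UMI was 84.3 ± 2.43% in melanoma-like cells, 72.4 ± 7.54% in low-RNA barcodes and 60.6 ± 15.3% in those with under 1% mitochondrial UMIs (99.9% and 83.6% without thinning for the first pair). No order is read from these shares, which do not follow the CPM. For *Gm42418* the thinned shares were 38.7 ± 14.1% and 72.8 ± 15.8% in melanoma-like and low-RNA barcodes, for *AY036118* 2.96% and 12.1%, for *Gm26532* 0.933% and 4.30%, and for *Neat1* 15.5% and 14.5%.

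The number of molecules per barcode set *Gm42418* apart from *Neat1*. *AY036118* and *Gm26917* are not given along depth here, so the pattern is not called particular to *Gm42418*. Barcodes with 1 to 7.5% mitochondrial UMIs were grouped into 9 ranges of UMIs relative to the tumour's median, from a mean of 698 UMIs per barcode to a mean of 20131. Across them *Gm42418* had 4.79, 6.13, 7.56, 9.46, 10.2, 10.5, 10.8, 11.6 and 12.3 UMIs per barcode, while its level went from 6960 ± 5498 to 610 ± 248 CPM. *Neat1* had 0.254, 0.513, 0.852, 1.21, 2.01, 2.65, 3.85, 5.83 and 6.96 UMIs per barcode, and its level stayed between 332 and 404 CPM. Over the upper 6 ranges, in which all UMIs per barcode went from 3680 to 20131, *Gm42418* thus stayed between 9.46 and 12.3 molecules.

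*Malat1* lay between these. It had 15.5, 31.6, 34.2, 42.8, 59.3, 67.1, 71.1, 85.8 and 101 UMIs per barcode over the same ranges, and its level went from 22255 to 5044 CPM. In barcodes with under 1% mitochondrial UMIs it had 21.6, 69.6 and 103 UMIs per barcode in the 3 lowest ranges. The 103 in the range just under 1/3 of the median was above the 71.1 of barcodes at 1 to 1.5 times the median in the other kind, so there the number of *Malat1* molecules itself, and not only its share, was high. *Gm42418* had 5.38, 6.04 and 7.01 molecules in the same 3 ranges.

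**Figure D4:**
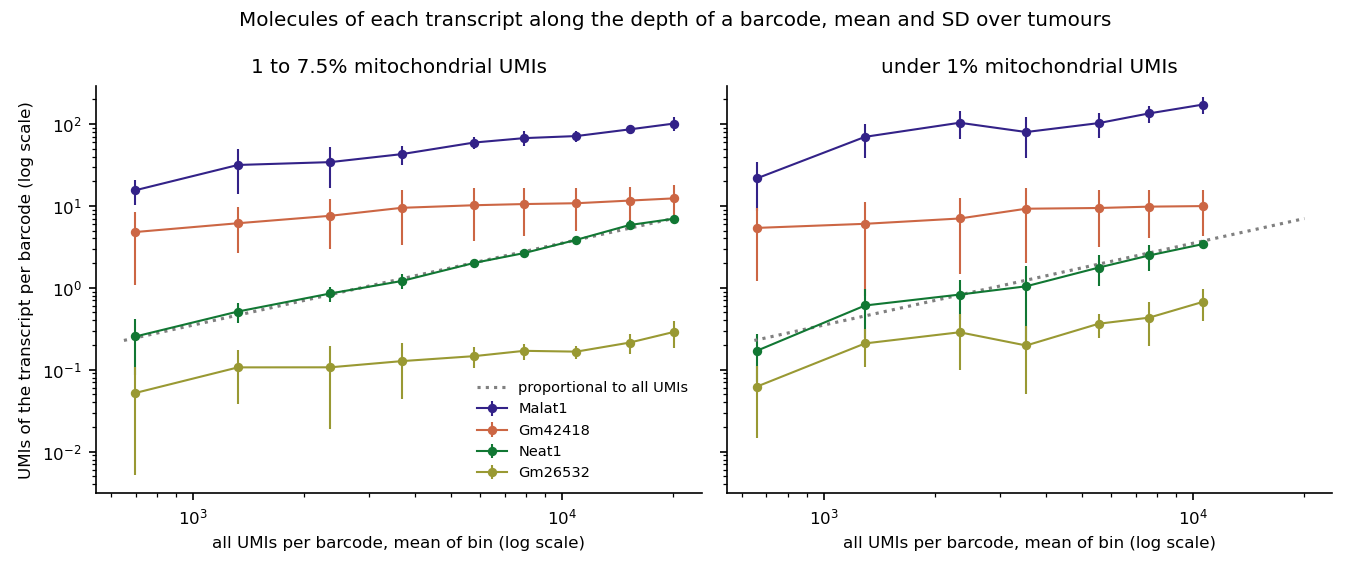
Mean UMIs per barcode of *Malat1*, *Gm42418*, *Neat1* and *Gm26532* against mean total UMIs per barcode (both log scales), in barcodes with 1 to 7.5% (left) and under 1% (right) mitochondrial UMIs, grouped by UMIs relative to the tumour's median; bars are the SD over tumours (lower ends are cut where they would leave the log axis), and the dotted line, proportional to all UMIs, was placed by hand at about the *Neat1* level. On the left *Neat1* runs along the line from 0.254 to 6.96 molecules and *Gm42418* is flatter, from 4.79 to 12.3; on the right *Gm42418* runs from 5.38 to 9.94.

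Across melanoma-like cells and the host classes, the order of *Malat1* levels was melanoma-like (6899 ± 961 CPM, n = 8), other immune (10593 ± 1055, n = 7), TAM-like (11283 ± 2417, n = 8), CAF-like (11872 ± 3281, n = 8) and T/NK-like cells (12661 ± 4725, n = 6). The 4 host classes differed from each other by less than their spread. *Neat1* was 314 ± 223 in T/NK-like, 361 ± 50.3 in melanoma-like, 465 ± 226 in TAM-like, 834 ± 217 in CAF-like and 856 ± 295 in other immune cells, and only the step from TAM-like to CAF-like cells was larger than the SDs of both neighbours. *Gm42418* was 983 ± 502 in melanoma-like, 4617 ± 3415 in other immune, 4969 ± 3915 in TAM-like and 5273 ± 3715 in CAF-like cells, and these 3 host classes differed by less than their spread. Barcodes held medians of 955 UMIs in T/NK-like, 1078 in other immune, 2316 in TAM-like and 4585 in CAF-like cells, against 10390.5 in melanoma-like cells, and the part of depth in these orders was not tested. *Dct* was found in CAF-like barcodes at the shares given above, and the part of melanoma RNA in the host levels was not tested. *Gm26532* had no UMI in TAM-like cells of Atf4wt/wt replicate 2, and 3 UMIs among the 19099 counted there would have been 157 CPM.

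The 8 melanoma-like clusters described here also spread widely in *Malat1*. Its level was 2707 ± 581 CPM in the cluster led by the mitosis genes *Cenpa*, *Cdkn3* and *Cdc20*, 4284 ± 770 and 5094 ± 714 in clusters led by the replication genes *Ung* and *Cdc6* and by *Hist1h2ae* and *Ccne2*, and 5559 ± 454 in the cluster led by *Fam83d* and *Nusap1*. It was 7401 ± 964 in the cluster led by *Kcnj13*, 7579 ± 761 in that led by the interferon-induced *Ifit3*, 9743 ± 823 in that led by *Espn* and *Nppb*, and 11970 ± 801 in that led by *Fgf21* and *Cdsn* (n = 8 each). The 4 clusters led by cell cycle genes were the lowest, and the neighbours at 5094 and 5559 CPM, like those at 7401 and 7579, differed by less than the larger of their SDs. Median UMIs per barcode were 10019 to 14545.5 in the clusters led by cell cycle genes and 8629 to 10071 in the others described. The part of depth in this order was not tested. The same clusters ran from 307 to 405 for *Neat1* and from 779 to 1297 for *Gm42418*. The clusters were built from the same cells, and their leading genes are given only to name them.

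The genes most like *Malat1*, by Pearson's r of log2(CPM + 1) over 32 sums (8 tumours by 4 kinds of barcode, which share their libraries and depth), were *Gm26699* (0.927), *Ahnak2* (0.927), *Gjc3* (0.914), *Creg1* (0.912) and *Pde4d*, a cAMP phosphodiesterase (0.910), among 7933 genes. Among the 6 transcripts, *Gm26532* had 0.932 with *Malat1*, *AY036118* 0.799, *Gm26917* 0.692, *Gm42418* 0.595 and *Neat1* 0.227. For *Neat1* the leading genes were *Atp2a2*, a calcium pump of the endoplasmic reticulum (0.807), *Sema3b* (0.798), *Ahnak* (0.792), *Slc38a1* (0.787) and *Nrcam* (0.766). For *Gm42418* they were *Lars2* (0.916), the hexokinase *Hk2* (0.718), *Lyst* (0.711) and the ribosomal protein genes *Rpl21* (0.715) and *Rps19* (0.707), with *AY036118* at 0.793.

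The question put to the genotypes was whether the level of each transcript differed between tumours of Atf4wt/wt and Atf4D/D hosts within a kind of cell. None of the 6 passed an adjusted p of 0.05 (edgeR quasi-likelihood on sums per tumour, Benjamini-Hochberg over all genes) in melanoma-like cells, low-RNA barcodes, CAF-like cells, barcodes above the mitochondrial limit or the difference between low-RNA barcodes and melanoma-like cells, nor did any of the 5 that could be tested in TAM-like cells. Over all genes, the percentages called were 0.0398 in melanoma-like cells, 0.0645 in CAF-like cells, 0.0230 for the difference between kinds and 0 in low-RNA barcodes, TAM-like cells and barcodes above the limit. In these last 3, 243 of 6251, 316 of 2009 and 1081 of 11650 genes had an unadjusted edgeR p under 0.05. DESeq2 called 2 of 14827, 27 of 653 and 61 of 3263 there.

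*Gm42418* was the 1 of the 6 transcripts whose genotype groups did not overlap in melanoma-like cells. The values given above average 1332 ± 511 CPM in Atf4wt/wt and 633 ± 30.6 in Atf4D/D tumours (n = 4 each). Its lowest Atf4wt/wt value, 688 in replicate 4, was just above its highest Atf4D/D value, 676 in replicate 1. Groups that do not overlap were seen for 6.64% of all genes tested, 1.29% with the Atf4D/D tumours lower. In low-RNA barcodes, CAF-like cells and TAM-like cells the groups overlapped for all 6, against groups apart in 2.69%, 3.96% and 8.76% of all genes (0.960%, 2.32% and 5.38% lower in Atf4D/D). The edgeR log2 difference was -1.12 (SE 0.30, adjusted p = 0.327), and DESeq2 gave -1.12 with an adjusted p of 0.0214. Without Atf4wt/wt replicate 4, edgeR gave -1.33 (SE 0.14, adjusted p = 0.0361), and over all alternatives the difference ran from -1.33 to -0.91 with adjusted p values of 0.0214 to 0.606. The call therefore turned on the tool and on that tumour, which also had the lowest median UMIs per barcode, 6330.5 against 8180 to 10652.5 in the other 7. The labels and the methods name different kits, and the methods name a further instrument without saying which libraries it ran, so the part of kit or instrument in the *Gm42418* values was not tested.

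In low-RNA barcodes *Gm42418* averaged 5858 ± 2973 CPM in Atf4wt/wt and 2439 ± 155 in Atf4D/D tumours, and the groups overlapped because Atf4wt/wt replicate 4 (1818) was the lowest of the 8. The log2 difference was -1.30 (SE 0.42, edgeR adjusted p = 0.966) with all 8 tumours and -1.60 (SE 0.14, adjusted p = 3.2e-07) without that replicate, while every other alternative gave an adjusted p of 0.553 or more. CAF-like cells held 4880, 9191, 11879 and 3126 CPM in Atf4wt/wt replicates 1 to 4 and 2907, 1621, 6736 and 1844 in Atf4D/D replicates 1 to 4, and TAM-like cells held 4367, 13247, 8471 and 2132, and 2762, 2302, 3021 and 3449. Atf4wt/wt replicate 4 was again the lowest of its genotype in both. In CAF-like cells the groups overlapped only through Atf4D/D replicate 3 (6736), whose sum held 10 barcodes and 40826 UMIs. In TAM-like cells they overlapped through Atf4wt/wt replicate 4 (2132). The log2 differences were -1.23 (SE 0.62, edgeR adjusted p = 0.857) and -1.22 (SE 0.56, adjusted p = 0.346). Above the mitochondrial limit the difference was -1.08 (SE 0.36, edgeR adjusted p = 0.466), or -1.33 (adjusted p = 0.0438) without Atf4wt/wt replicate 4.

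The difference between genotypes was also compared between kinds of barcode. For *Gm42418*, that in low-RNA barcodes minus that in melanoma-like cells was -0.07 (SE 0.12, edgeR adjusted p = 1). *Lars2*, the gene most like *Gm42418*, had 104, 148, 132 and 67.3 CPM in low-RNA barcodes of Atf4wt/wt replicates 1 to 4 and 61.5, 53.0, 40.1 and 38.9 in those of Atf4D/D replicates 1 to 4. Its Atf4wt/wt values were all above its Atf4D/D values, against groups apart in 2.69% of all genes there (0.960% lower in Atf4D/D). The log2 difference was -1.25 (SE 0.25, edgeR adjusted p = 0.555). *Lars2* was picked by its likeness to *Gm42418* over sums that include these values, so its pattern is no separate evidence.

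For *AY036118* the genotype difference rested on 1 tumour in melanoma-like cells. The values were 33.9, 32.6, 258 and 22.4 CPM in Atf4wt/wt replicates 1 to 4 and 18.8, 37.1, 29.5 and 28.3 in Atf4D/D replicates 1 to 4. All but Atf4wt/wt replicate 3 overlapped. In edgeR it gave a log2 difference of -1.66 (SE 0.91, adjusted p = 0.566) and -0.10 without that replicate. In low-RNA barcodes it was -1.64 (SE 0.64, edgeR adjusted p = 0.966), or -0.95 without that replicate. The difference between the kinds was -0.50 (SE 0.38, adjusted p = 1) with all tumours and -0.92 (adjusted p = 0.0266) without Atf4wt/wt replicate 3.

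Ratios within a library do not depend on its scaling. The melanoma-like ratio of *Gm26917* to 100 UMIs of *Gm42418* was 3.90, 2.91, 5.23 and 11.7 in Atf4wt/wt replicates 1 to 4 and 9.001, 9.01, 11.7 and 10.4 in Atf4D/D replicates 1 to 4. Replicates 1 to 3 of Atf4wt/wt were the lowest, and replicate 4 lay within the Atf4D/D range. The log2 difference was 0.96 (exact permutation p = 0.114, adjusted over 3 ratios 0.343, two-sided) and 1.35 without Atf4wt/wt replicate 4 (exact permutation p = 0.0286, adjusted 0.0857). For *AY036118* to *Gm42418* it was 0.12 (exact permutation p = 1) and for *Neat1* to *Malat1* 0.07 (exact permutation p = 0.914). The smallest p that 8 tumours allow is 0.0286, and it is the same without Atf4wt/wt replicate 4. Adjusted over 3 ratios, the p of a ratio that differs alone cannot fall below 0.0857. Such a ratio could therefore not pass the threshold. The ratio of *Gm26917* to *Gm42418* uses the *Gm42418* UMIs tested above, so it is no separate evidence. Mean melanoma-like CPM in Atf4wt/wt over Atf4D/D tumours was 1.065 for *Gm26917* and 2.104 for *Gm42418*.

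The *Malat1* levels of the genotypes overlapped in melanoma-like cells and in low-RNA barcodes. The log2 difference was -0.20 (SE 0.12, edgeR adjusted p = 0.543) in melanoma-like cells and -0.28 (SE 0.55, adjusted p = 0.982) in low-RNA barcodes (values above). In CAF-like cells, in which host *Atf4* is excised, it held 11828, 8440, 8829 and 9455 CPM in Atf4wt/wt replicates 1 to 4 and 10789, 15375, 17758 and 12504 in Atf4D/D replicates 1 to 4. Only Atf4wt/wt replicate 1 reached the Atf4D/D range. The edgeR log2 difference was 0.55 (SE 0.13, adjusted p = 0.377), and it lay between 0.46 and 0.65 with any 1 tumour left out. The CAF-like sums came from 10 to 243 barcodes per tumour, and *Dct* in them was 1315 ± 539 CPM in Atf4wt/wt and 951 ± 443 in Atf4D/D tumours.

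*Neat1* gave log2 differences of -0.15 (SE 0.11, edgeR adjusted p = 0.670) in melanoma-like cells and -0.07 in CAF-like cells. In TAM-like cells it held 398, 314, 323 and 330 CPM in Atf4wt/wt replicates 1 to 4 and 491, 379, 489 and 998 in Atf4D/D replicates 1 to 4. The groups overlapped in that Atf4D/D replicate 2 (379) was below Atf4wt/wt replicate 1 (398). In edgeR the log2 difference was 0.82 (SE 0.29, adjusted p = 0.197), from 564 *Neat1* UMIs in 433 barcodes, and it was 0.42 to 1.02 with any 1 tumour left out, the lowest without Atf4D/D replicate 4. *Dct* in the same sums was 2100 ± 1270 CPM in Atf4wt/wt and 849 ± 582 in Atf4D/D tumours, and its part in the result was not tested. *Gm26917* and *Gm26532* gave -0.13 and -0.17 in melanoma-like cells (adjusted p = 0.897 and 0.827, edgeR).

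**Figure D5:**
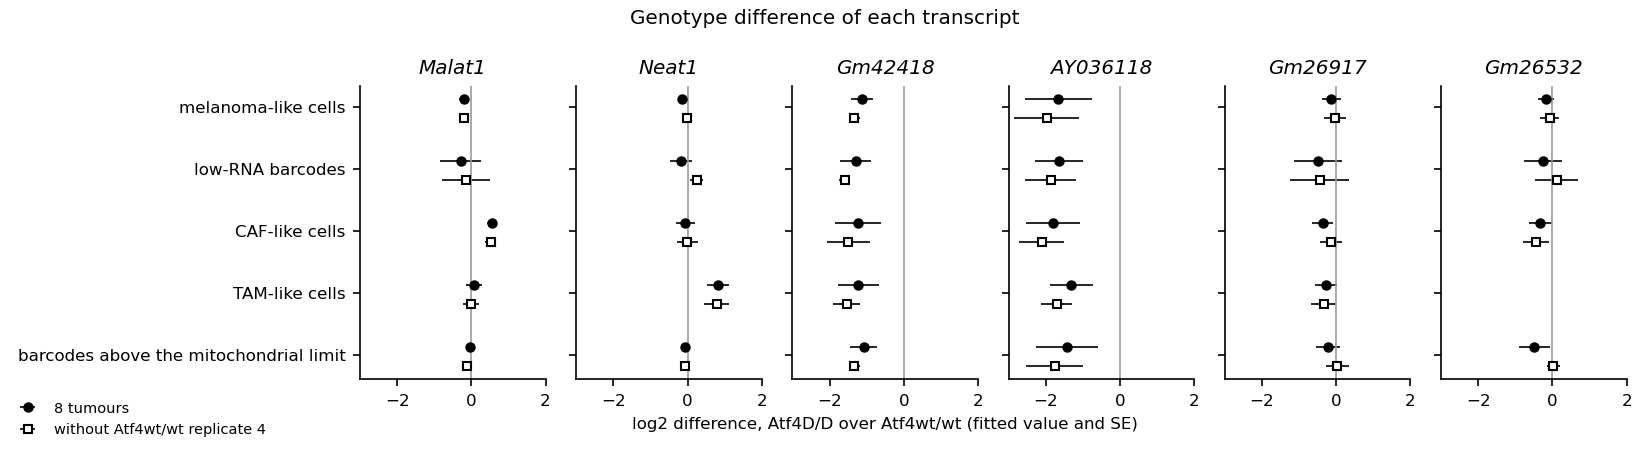
Log2 difference Atf4D/D minus Atf4wt/wt with its SE for each transcript in 5 kinds of barcode, with filled points for all 8 tumours and open points for the fit without Atf4wt/wt replicate 4. *Gm42418* lies between -1.30 and -1.08 in all 5 kinds with all tumours, *Malat1* is at 0.55 in CAF-like cells, and *Gm26532* has no point in TAM-like cells because it failed the filter on low counts.

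The lists around these transcripts held no gene that passed the genotype test. In melanoma-like cells 0 of 18 genes of speckle proteins, 0 of 15 genes of paraspeckle proteins, 0 of 21 genes of ribosomal RNA synthesis, 0 of 5 long noncoding RNAs, 0 of 13 mitochondrial mRNAs, 0 of 16 cytoplasmic mRNAs and 0 of 4 genes with ribosomal-like reads were called in either direction. The median log2 difference was -0.19 over the 6 transcripts and -0.00 over the 12566 genes tested. In low-RNA barcodes the medians were -0.39 and -0.00, and in CAF-like cells they were -0.34 and -0.01.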

How the data were processed

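Gene expression was measured in single cells of 8 tumours. The deposited tables hold raw UMI counts per gene and barcode, which the authors did not normalise. The submitters' processing notes name Cell Ranger 3.1.0, Seurat 3.2.1 and GRCm38. The kit is V3 in the labels and V2 in the methods, which also name a second sequencing instrument without its libraries. Barcodes with 200 to 5000 genes and at most 7.5% mitochondrial UMIs were kept, and clustered with Seurat 5.3.0 (R 4.3.3, 20 principal components, resolution 0.7, 16 clusters). The authors removed a cluster with high mitochondrial content. Here the cluster with the highest mitochondrial share (243 cells, led by *Ccl5* and *Cd74*) was only kept out of the melanoma-like class. Its barcodes with under 1/3 of the tumour's median UMIs stayed among the low-RNA barcodes, so they entered the low-RNA values, that of *Cd74* included. Clusters were named from marker lists by limits set with the data in view, and doublets were neither called nor removed.

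Counts were summed per tumour and class with 10 or more barcodes and given as CPM, UMIs per 1000000. Genotypes were compared with edgeR 4.0.16 (quasi-likelihood, TMM, filterByExpr, Benjamini-Hochberg), with the tumour as the replicate, and ratios by exact permutation (scipy 1.17.1). DESeq2 1.42.0, other scalings, filters, class limits, sex, a replicate block and leaving out each tumour were the alternatives. The edgeR step was tested on simulated data. The members and lists were chosen with earlier results of these data known. Named genes were the 6 transcripts, the 5 genes most correlated with *Malat1*, *Neat1* and *Gm42418*, and the 2 highest genes of each list with any past the threshold. *Cdk8* was added after its values were seen. The levels in 1 melanoma-like cluster are not reported here.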

Additional observations from a re-analysis of the deposited data

Results flagged for a closer look

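Of 54 groups of 4 tumours, 6 held a tumour whose gap to the nearest other passed Dixon's 95% limit as a share of the group's range, where chance gives about 1 in 20 groups, or 2.7. The groups share tumours, and the ratios are made from the same levels, so 6 against 2.7 is not read as an excess. *AY036118* in melanoma-like cells was 258 CPM in Atf4wt/wt replicate 3 against 22.4 to 33.9 in the other 3 tumours of that genotype. In the same tumour there were 14.0 UMIs of *AY036118* per 100 of *Gm42418*, against 2.01 to 3.25. Atf4D/D replicate 2 stood apart for 3 values in melanoma-like cells. *Malat1* was 7742 CPM there against 5923 to 6212, *Neat1* was 322 against 355 to 358, and *Neat1* per 100 *Malat1* was 4.16 against 5.72 to 6.02. *Neat1* in CAF-like cells was 422 CPM in Atf4wt/wt replicate 2 against 996 to 1033.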

How the results depend on the processing

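Over 35 pairs of a transcript and a comparison, 277 of 281 alternatives and 250 of 280 fits without 1 tumour kept the direction and the side of the threshold. The *Gm42418* call of DESeq2 in melanoma-like cells (adjusted p = 0.0214) was the only alternative that passed, and 4 fits without 1 tumour passed, *Gm42418* in 3 kinds of barcode without Atf4wt/wt replicate 4 and *AY036118* between kinds without Atf4wt/wt replicate 3. Differences turned sign for *Gm26532* (0.0942) and *Malat1* (0.0031) in low-RNA barcodes with under 1% mitochondrial UMIs, for *Malat1* above the mitochondrial limit with total UMIs only (0.036), and, outside those 35 pairs, for the ratio of *AY036118* to *Gm42418* in low-RNA barcodes (-0.56). The cause was not tested.

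Counts of genes called moved more. In melanoma-like cells they were 5, and 124 with DESeq2, 44 with every gene, 18 with total UMIs only, and 0 with sex as a covariate, with all kept or with all deposited barcodes. In CAF-like cells they were 3, and 55 with every gene and 1 with sex. From 0, TAM-like cells went to 27 with DESeq2 and 48 with every gene, low-RNA barcodes to 2 and 7, and barcodes above the limit to 61 and 16, and 1 with total UMIs only. The difference between kinds went from 3 to 0 with DESeq2 and 1 with sex. Same-numbered tumours were not paired, as their correlations ran from -0.350 to 0.102. The replicate block gave 1 call in melanoma-like cells (*Gm42418* -1.02, adjusted p = 0.606), 6 in CAF-like cells, 1 in TAM-like cells and 2 for the difference between kinds. Without 1 tumour, the counts were 0 to 20 in melanoma-like cells (20 without Atf4D/D replicate 3, 9 without Atf4wt/wt replicate 2, 0 to 3 without each of the other 6), 0 to 3 in low-RNA barcodes, 0 to 4 in CAF-like cells, in TAM-like cells and above the limit, and 1 to 9 for the difference between kinds (9 without Atf4wt/wt replicate 1). The ratio of *AY036118* to *Gm42418* then ran from -0.22 to 0.72 and that of *Neat1* to *Malat1* from -0.0182 to 0.19.

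Leaving out 1 tumour turned the sign of *Gm26532* (-0.72 to 0.0283 above the limit, -0.61 to 0.11 in low-RNA barcodes, -0.24 to 0.20 between kinds), *Gm26917* (-0.42 to 0.0345 above the limit, -0.29 to 0.10 in melanoma-like cells, -0.98 to 0.12 between kinds), *Malat1* (-0.12 to 0.048 above the limit, -0.84 to 0.0129 in low-RNA barcodes, -0.11 to 0.22 in TAM-like cells, -0.40 to 0.13 between kinds), *Neat1* (-0.34 to 0.24 in low-RNA barcodes, -0.29 to 0.035 in CAF-like cells, -0.0808 to 0.28 between kinds) and *Gm42418* (-0.27 to 0.0504 between kinds). With low-RNA set at under 1/5 of the median, the ratio to melanoma-like cells was 7.81 for *AY036118* (5.05 at 1/3), 5.57 for *Gm26917* (3.53) and 5.17 for *Gm42418* (4.01). Thinned to 1000 UMIs, the low-RNA shares with a UMI were 84.6% for *Malat1*, 25.4% for *Neat1*, 12.3% for *Gm26917* and 7.53% for *Gm26532*, against 72.4, 14.5, 6.35 and 4.30% at 500.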

Other observations

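A few nuclear genes of the lists, chosen after their values were seen and with no test, were higher in low-RNA barcodes of 8 of 8 tumours, by less than *Malat1*, *Gm26532* and the 3 ribosomal models were on average. *Son*, a large scaffold protein of nuclear speckles, had 435 ± 127 CPM in low-RNA barcodes against 294 ± 15.98 in melanoma-like cells (mean log2 ratio 0.51 ± 0.37, n = 8). *Clk1*, a kinase of splicing factors, had 175 ± 44.0 against 116 ± 7.83 (0.56 ± 0.31), and *Taf15*, an RNA-binding protein, had 231 ± 63.5 against 145 ± 19.8 (0.63 ± 0.25). *Tug1*, a long noncoding RNA, had 49.5 ± 10.6 against 33.4 ± 2.77 (0.53 ± 0.29). The speckle list also held *Ddx5* and *Srsf3*, which were lower in 8 of 8 tumours.

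*Gm42418* was also counted in immune classes too small for a test. In other immune cells it was 6969, 8112, 9407 and 2744 CPM in Atf4wt/wt replicates 1 to 4 and 1921, 1366 and 1802 in Atf4D/D replicates 1, 2 and 4. In T/NK-like cells it was 11804, 10618 and 1776 in Atf4wt/wt replicates 1, 3 and 4 and 1593, 1205 and 1842 in Atf4D/D replicates 1, 2 and 4. Atf4wt/wt replicate 4 was again the lowest of its genotype in both classes. Tumours with no value given had under 10 such barcodes.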
